A study of Mus musculus with 10 samples.

Results

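The genes described here are the core of the Notch signaling pathway: the receptors *Notch1*, *Notch2* and *Notch3*, the ligands *Jag1*, *Jag2*, *Dll1* and *Dll4*, and the target genes *Hes1*, *Hey1* and *Heyl*. They were chosen by gene symbol, and all 10 had a row among the 23080 genes of the count table. Expression was measured by bulk RNA-seq of the anterior fontanelle (AF), the soft connective tissue gap between the growing frontal and parietal bones, in mouse embryos at E18.5, and by the study's text the dissected region held bone as well as suture connective tissue, with skin and brain removed. Of the 10 libraries, 5 are labelled WT and 5 carry the genotype Wnt1-Cre; Fgfr2fl/fl, in which *Fgfr2*, a receptor for fibroblast growth factors, is floxed and Cre is expressed from the Wnt1 promoter in neural crest cells. Cells of the tissue that do not come from the neural crest, such as blood vessel endothelium and macrophages, therefore keep the gene. The labels do not say whether the WT embryos carried Cre or floxed alleles, and the study's text describes 5 littermate pairs of control and mutant embryos but does not name the 2 libraries of any pair.

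Notch receptors are single-pass membrane proteins that are activated by ligands on a neighboring cell. Ligand binding lets an ADAM protease and then the gamma-secretase complex cut the receptor, and the freed intracellular domain joins the DNA-binding protein RBPJ and Mastermind-like coactivators to switch on target genes, among them the HES and HEY families of transcriptional repressors. In the skeleton, Notch signaling is known for holding osteoblast progenitors back from differentiation, and in blood vessels for arterial identity and for the coating of vessels by pericytes and smooth muscle.

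The libraries held between 20774667 and 28515434 counts each, of which 18.7% to 33.6% fell on 6 ribosomal RNA genes. Values are given in CPM, that is, relative to each library's total count, with the totals adjusted by TMM so that most genes match between libraries. The targeted gene was checked first. *Fgfr2* was at 199.5 ± 21.7 CPM in the libraries labelled WT and at 318 ± 32.8 CPM in those labelled as knockout (SD, n = 5 each), with no overlap between groups and a log2 fold change of 0.67 (standard error, SE, 0.090; adjusted p = 0.0487). Its log2 fold change stayed between 0.63 and 0.75 under the 21 alternatives tried, but the adjusted p was not under 0.05 in 14 of them, among them library size only, each covariate and the fits without any 1 of control-labelled replicates 1, 3, 4 and 5 or mutant-labelled replicates 1, 3, 4 and 5. Total *Fgfr2* counts were thus higher, not lower, under the knockout label. They do not separate a recombined from an intact transcript, so they cannot test the genotype. Libraries are therefore named by their label, control-labelled or mutant-labelled, and each direction is given by label. In the annotation used (GENCODE M21), 1 transcript stretches *Fgfr2* to chr7:130162451-133123350 on the minus strand, where 314 of its 10328 exon bases are shared with *Ctbp2* on the same strand. *Ctbp2* itself was at 30.7 ± 1.08 CPM under the control label and 31.6 ± 2.06 CPM under the mutant label (SD, n = 5 each). Other genes also differed by label, at an unadjusted p under 0.05, with log2 fold changes of -0.24 for *Sp7* and -0.58 for *Ibsp*, osteoblast genes, and of 0.58 for *Tnmd* and 0.64 for *Matn4*, connective tissue genes. Markers of the tissue were present: the osteoblast list of 10 genes summed to 66100 to 77700 CPM under the control label and 54100 to 78400 CPM under the mutant label, and the connective tissue genes *Scx*, *Tnmd*, *Mkx* and *Matn4* to 148 to 179 CPM and 199 to 278 CPM. Most of the osteoblast sum was *Col1a1*, at means of 66200 and 64100 CPM (log2 fold change -0.048). The sum therefore says little of the other osteoblast genes. Epidermis markers summed to between 3.08 and 6.36 CPM, with *Krt14* and *Trp63* too low to be tested. Skeletal muscle and neuron markers differed widely between libraries of 1 label. The 5 muscle genes tested of 6 listed summed to 15.4 to 667 CPM under the control label and 15.0 to 660 CPM under the mutant label (exact permutation p of the mean log2 CPM 0.913), and the 6 neuron genes to 52.0 to 142 CPM and 53.9 to 425 CPM (exact permutation p = 0.437). Their part in the members' values was not tested.

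All of the Notch genes were expressed, and their levels differed widely. Levels of different genes were compared per kilobase of exon, because longer transcripts give more reads. *Notch3* had the highest mean, 17.2 ± 1.17 CPM per kilobase over the 10 libraries (SD), followed by *Notch2* at 15.2 ± 1.63 and *Hes1* at 13.7 ± 1.80 CPM per kilobase. These placed the 3 genes at the 90.4, 88.9 and 87.3 percentile of the 15991 tested genes with a known exon length. *Jag1* at 7.44 ± 0.622, *Hey1* at 6.71 ± 0.766, *Heyl* at 6.08 ± 0.826 and *Notch1* at 5.41 ± 0.485 CPM per kilobase formed a middle tier, between the 68.0 and 76.0 percentile. *Jag2* at 2.92 ± 0.360 and *Dll4* at 2.88 ± 0.247 CPM per kilobase lay close to the median of tested genes, 2.82 CPM per kilobase, and *Dll1* was the lowest at 1.38 ± 0.221 CPM per kilobase.

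The tiers were separate and the order within them was not. The lowest library of *Hes1*, at 11.5 CPM per kilobase, was above the highest library of *Jag1*, at 8.40. The lowest of *Notch1*, at 4.52, was above the highest of *Jag2*, at 3.44, and the lowest of *Dll4*, at 2.50, was above the highest of *Dll1*, at 1.72. Within a tier the ranges of neighboring genes overlapped. *Notch3* exceeded *Notch2* in 9 of 10 libraries and *Notch2* exceeded *Hes1* in 7, while *Jag2* exceeded *Dll4* in 6, so the latter pair could not be ordered beyond the spread between libraries.

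**Figure D1:**
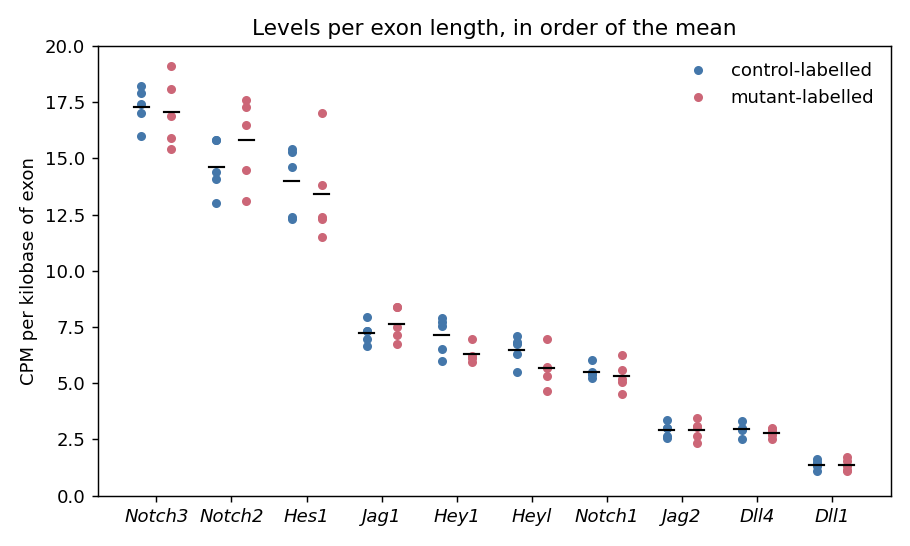
Level of each Notch gene in CPM per kilobase of exon (vertical axis, linear) in the control-labelled and mutant-labelled libraries, ordered by mean level. Each point is 1 library and each bar a group mean; *Notch3*, *Notch2* and *Hes1* lie between 11.5 and 19.1, and *Dll1* does not exceed 1.72.

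Seen as shares of the summed level per kilobase, *Notch3* made up 42.2% ± 1.72 of the 4 receptors under the control label and 40.8% ± 1.6 under the mutant label (SD, n = 5 each). *Notch2* made up 35.6% ± 2.46 and 37.6% ± 2.42, *Notch1* 13.4% ± 0.725 and 12.7% ± 0.919, and *Notch4*, the endothelial receptor, 8.87% ± 0.904 and 8.87% ± 0.897. *Jag1* gave about as much as the other ligands together, 50% ± 1.65 of the 4 ligands under the control label and 51.8% ± 4.16 under the mutant label. *Hes1* held a like share among the target genes, 50.6% ± 2.28 and 52.7% ± 3.85. The ranges of every share overlapped between the groups, and no test of the shares was made.

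Between the groups, none of the 10 genes differed at an adjusted p-value under 0.05 in edgeR's quasi-likelihood test, where 0.0184% of the 16267 genes tested did (3 genes). By limma voom the count was again 0 of 10, beside 0.0184% of all genes, and by the DESeq2 Wald test 0 of 10, beside 0.597% of the 16239 genes it gave an adjusted p. At an unadjusted p under 0.05, a threshold that 7.49% of all genes passed, 1 of the 10 did. It was *Hey1*, also the 1 member at that threshold by limma voom, while DESeq2 had 0. *Hey1* was lower by label, beside 3.82% of all genes, and none was higher, beside 3.68%. No member had groups that did not overlap, beside 1.48% of all genes. These counts are near the shares of all genes. Of the fitted differences, 8 were below 0 and 2 above, but those of *Jag2* and *Dll1* were close enough to 0 to change sign when DESeq2 size factors replaced TMM. The median log2 fold change of the members was -0.036, against 0.00073 over all genes tested, and the median size of the change was 0.068 against 0.091. The farthest 95% confidence limit of any member was 0.42 log2 units from 0. In bulk tissue, a lower value of a gene through fewer cells of a type and through less RNA per cell cannot be told apart.

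**Figure D2:**
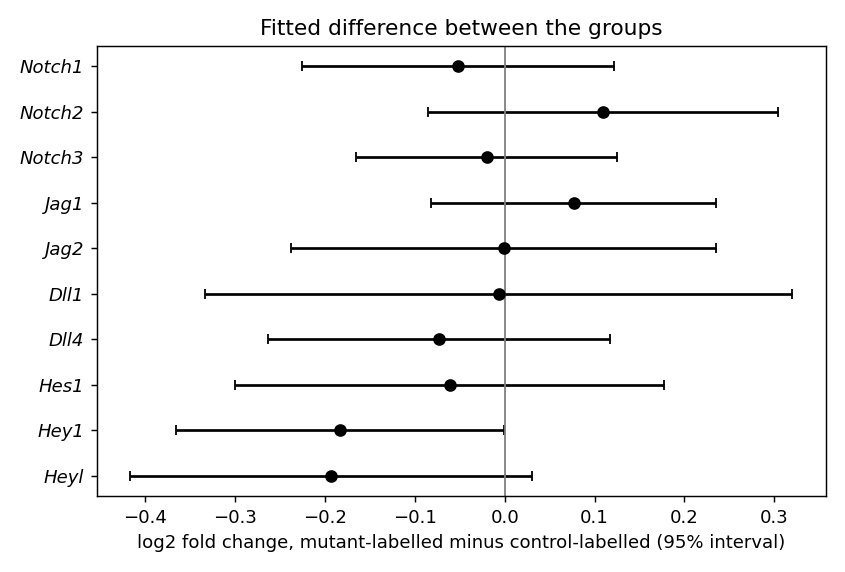
Log2 fold change of each Notch gene, mutant-labelled minus control-labelled libraries (horizontal axis), from edgeR's quasi-likelihood fit over 10 libraries. Points are estimates and bars 95% confidence intervals; the interval of *Hey1*, from -0.37 to -0.00074, is the only one that leaves out 0, and the signs of *Jag2* and *Dll1* change with DESeq2 size factors.

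The target genes *Heyl* and *Hey1* had the largest fitted differences. *Hey1* encodes a basic helix-loop-helix repressor that acts in arterial endothelium and in bone. It lies at chr3:8663359-8667256 on the minus strand (GRCm38). Its values in control-labelled replicates 1 to 5 were 25.2, 19.5, 24.7, 25.8 and 21.3 CPM, and in mutant-labelled replicates 1 to 5 they were 22.8, 20.3, 20.03, 20.1 and 19.4 CPM. All 5 mutant-labelled libraries were below the control-labelled median, but the control-labelled replicate 2, at 19.5 CPM, was as low as they were. The means were 23.3 ± 2.74 and 20.5 ± 1.31 CPM (SD, n = 5 each). The log2 fold change was -0.18 (SE 0.084, 95% confidence interval -0.37 to -0.00074, adjusted p = 0.659), which is a fold of 0.881. By its unadjusted edgeR p of 0.0492 *Hey1* ranked 1203 among the 16267 genes, and the two-sided exact permutation test over all groupings of the libraries into 5 and 5 gave p = 0.0794. The call at an unadjusted p under 0.05 rested on single libraries: it was lost without control-labelled replicate 1, 3 or 4 or mutant-labelled replicate 2, 3, 4 or 5 (p from 0.0833 to 0.13), and it was 0.00849 without control-labelled replicate 2.

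*Heyl*, a related repressor known from vascular smooth muscle and pericytes, lies at chr4:123233556-123249875 on the plus strand. The control-labelled libraries held 32.2, 28.0, 35.0, 34.4 and 36.4 CPM, and the mutant-labelled libraries 29.1, 29.3, 35.6, 27.3 and 23.8 CPM. Of the latter, 4 were below the control-labelled median and the third replicate, at 35.6 CPM, was among the highest of all. The log2 fold change was -0.19 (SE 0.10, 95% confidence interval -0.42 to 0.030, adjusted p = 0.687), from 33.2 ± 3.27 to 29.0 ± 4.30 CPM (SD, n = 5 each), and the exact permutation test gave p = 0.135. Without mutant-labelled replicate 3 the log2 fold change was -0.27 and its unadjusted p was 0.0117 (adjusted p = 0.525).

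*Hes1*, a repressor that many Notch-responsive cells induce, lies at chr16:30064384-30067796 on the plus strand. It was at 25.2, 25.1, 29.8, 31.3 and 31.1 CPM in the control-labelled and at 23.5, 25.1, 34.7, 25.2 and 28.0 CPM in the mutant-labelled libraries. The groups overlapped over nearly their whole range, and the highest library of all was mutant-labelled replicate 3. The means were 28.5 ± 3.12 and 27.3 ± 4.45 CPM (SD, n = 5 each), and the fit gave a log2 fold change of -0.061 (SE 0.11, adjusted p = 0.932). Single libraries moved it, to -0.15 without mutant-labelled replicate 3 and to -0.0030 without mutant-labelled replicate 1. With the osteoblast list as a covariate the sign turned, to 0.26.

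**Figure D3:**
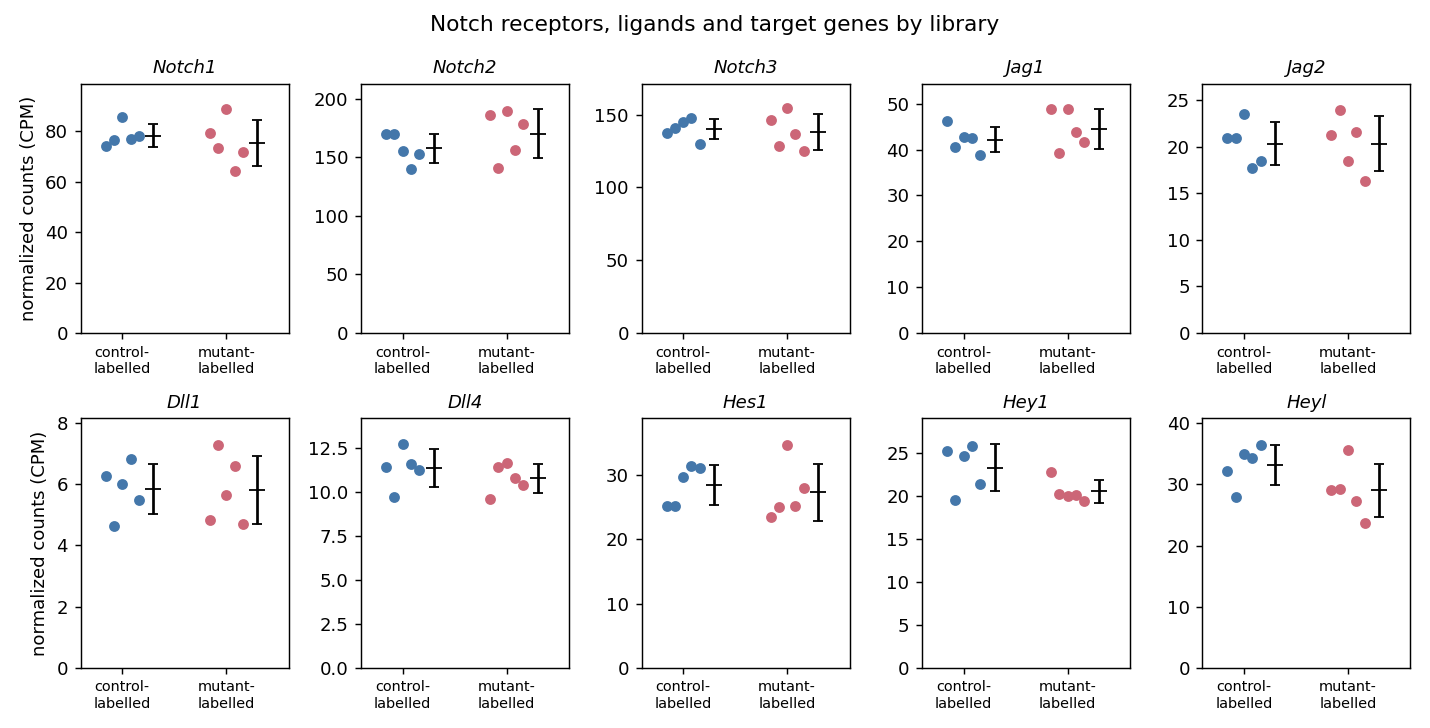
Normalized counts in CPM (vertical axes, linear from 0, a scale of its own for each gene) of the Notch receptors, ligands and target genes. Each point is 1 library in the order of replicates 1 to 5, and the bars beside the points are mean and SD; *Hey1* shows the 5 mutant-labelled libraries between 19.4 and 22.8 CPM, within the control-labelled range of 19.5 to 25.8 CPM except for 1 library just under it.

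Among the receptors, *Notch3*, which is known from pericytes and vascular smooth muscle, had the smallest difference relative to its level. It lies at chr17:32120820-32166852 on the minus strand, and 488 bases of its exons are shared with the opposite-strand gene *Gm17276*. The control-labelled libraries held 137, 141, 145, 147 and 129.7 CPM, and the mutant-labelled libraries 147, 128, 154, 137 and 125 CPM. The means of 140.1 ± 6.99 and 138 ± 12.3 CPM (SD, n = 5 each) gave a log2 fold change of -0.020 (SE 0.067, 95% confidence interval -0.17 to 0.13, adjusted p = 0.966). The sign turned without control-labelled replicate 3 or mutant-labelled replicate 2 or 5.

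*Notch2*, the receptor known from osteoclasts and from skeletal disease of its truncated form, had the largest fitted difference of the receptors. It lies at chr3:98013527-98150361 on the plus strand and shares 541 exon bases with *Gm42820* on the same strand. Its values were 169.9, 170.1, 156, 140.4 and 152 CPM in the control-labelled libraries and 186, 141, 189, 156 and 178 CPM in the mutant-labelled libraries. Of the mutant-labelled libraries, 3 exceeded every control-labelled library, and replicate 2 was near the bottom of the control-labelled range. The log2 fold change of 0.11 (SE 0.089, 95% confidence interval -0.085 to 0.30, adjusted p = 0.81) was within this spread, and the exact permutation test gave p = 0.27. Without mutant-labelled replicate 2 the log2 fold change was 0.18, with an unadjusted p of 0.0402 (adjusted p = 0.706).

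*Notch1*, the receptor of arterial endothelium and of many progenitor cells, lies at chr2:26457903-26516663 on the minus strand and shares 1482 exon bases with opposite-strand genes. It was at 74.4, 76.7, 85.8, 76.8 and 78.1 CPM in the control-labelled and at 79.4, 73.6, 88.8, 64.4 and 71.8 CPM in the mutant-labelled libraries. The mutant-labelled libraries held both the highest and the lowest value. The log2 fold change was -0.052 (SE 0.079, 95% confidence interval -0.23 to 0.12, adjusted p = 0.915). The value was 0.0084 without mutant-labelled replicate 4, the lowest library.

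All 3 receptors and *Hes1* reached their highest level in mutant-labelled replicate 3, which also held the highest *Dll4* and *Heyl* of the mutant-labelled libraries. Its TMM factor was 0.908 and ribosomal RNA took 33.0% of its counts, within the ranges of 0.900 to 1.13 and 18.7% to 33.6% over all libraries. The part of these in its levels was not tested.

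Of the ligands, *Jag1* is made by endothelium, smooth muscle and bone-forming mesenchyme, and it lies at chr2:137081456-137116644 on the minus strand. Its values were 46.2, 40.5, 42.7, 42.6 and 38.9 CPM in the control-labelled and 48.9, 39.3, 48.8, 43.8 and 41.6 CPM in the mutant-labelled libraries. Of the latter, 2 exceeded every control-labelled library and 2 were below the control-labelled median. The log2 fold change was 0.077 (SE 0.073, 95% confidence interval -0.082 to 0.24, adjusted p = 0.845).

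*Dll4*, the ligand of arterial and sprouting endothelium, lies at chr2:119325784-119335962 on the plus strand. It was at 11.4, 9.74, 12.8, 11.6 and 11.3 CPM in the control-labelled and at 9.61, 11.4, 11.7, 10.8 and 10.4 CPM in the mutant-labelled libraries. Of the mutant-labelled libraries, 4 were below the control-labelled median of 11.4 CPM, replicate 2 by less than the rounding here. None was above the highest control-labelled library, but the ranges overlapped. The log2 fold change was -0.074 (SE 0.087, 95% confidence interval -0.26 to 0.12, adjusted p = 0.881). Single libraries moved it, to -0.12 without control-labelled replicate 2, to -0.019 without control-labelled replicate 3 and to -0.025 without mutant-labelled replicate 1.

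*Jag2* at chr12:112907819-112929776 and *Dll1* at chr17:15367354-15376872, both on the minus strand, had the widest spread for their level among the ligands, with coefficients of variation of 12.3% and 16% over the 10 libraries. *Jag2* ranged from 17.8 to 23.6 CPM under the control label and from 16.3 to 24.0 CPM under the mutant label. *Dll1* ranged from 4.63 to 6.83 CPM and from 4.68 to 7.27 CPM, on 104 to 183 counts per library, the fewest of the members. Their log2 fold changes were the closest to 0, at -0.0012 (95% confidence interval -0.24 to 0.24, adjusted p = 0.999) and -0.0067 (95% confidence interval -0.33 to 0.32, adjusted p = 0.995). The intervals leave room for a change of either sign. The exons of *Dll1* share 867 bases, and those of *Dll4* 214 bases, with an opposite-strand gene, and since strand use in the counting is not given, reads there cannot be told apart.

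Promoter windows from RefSeq (GRCm38.p6) were read for 7 of the 10 genes, 8 windows in all, each reaching from 250 bases before to 50 bases after a transcription start. Those of *Hes1*, *Hey1* and *Heyl* were not analysed here. HES and HEY proteins bind the E-box CACGCG, whose reverse complement is CGCGTG. These letters, searched on both strands, were in 5 of the 8 windows, those of *Notch2*, *Jag1*, *Jag2*, *Dll4* and 1 of the 2 of *Dll1*, and in 9.27% of 32851 promoter windows of the same length. The member windows are richer in G and C, at 55.7% to 86%, than the median window at 52.7%. The E-box CACGTG (7.15% of all windows), the RBPJ core TGGGAA (25.6%) and its longer form GTGGGAA (6.38%, each of them a TGGGAA as well) were in none of the 8. The 3 windows shown belong to the receptor with the largest fitted difference, the most abundant ligand and the endothelial ligand. They are written 5′ to 3′ on the gene's strand, with CACGCG or CGCGTG in capitals.

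Notch2, chr3:98013288-98013587, plus strand: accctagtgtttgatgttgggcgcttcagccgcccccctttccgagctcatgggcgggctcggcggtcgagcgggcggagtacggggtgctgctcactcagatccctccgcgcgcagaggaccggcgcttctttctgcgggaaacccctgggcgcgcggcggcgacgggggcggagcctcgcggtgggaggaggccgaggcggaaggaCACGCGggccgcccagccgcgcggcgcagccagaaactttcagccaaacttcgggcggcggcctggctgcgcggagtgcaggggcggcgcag

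Jag1, chr2:137116471-137116770, minus strand: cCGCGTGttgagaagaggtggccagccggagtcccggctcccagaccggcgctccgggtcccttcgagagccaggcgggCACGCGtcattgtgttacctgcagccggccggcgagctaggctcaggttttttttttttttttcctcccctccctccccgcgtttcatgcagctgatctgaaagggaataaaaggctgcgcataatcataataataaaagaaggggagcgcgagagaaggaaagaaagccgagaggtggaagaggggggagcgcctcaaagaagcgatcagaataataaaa

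Dll4, chr2:119325534-119325833, plus strand: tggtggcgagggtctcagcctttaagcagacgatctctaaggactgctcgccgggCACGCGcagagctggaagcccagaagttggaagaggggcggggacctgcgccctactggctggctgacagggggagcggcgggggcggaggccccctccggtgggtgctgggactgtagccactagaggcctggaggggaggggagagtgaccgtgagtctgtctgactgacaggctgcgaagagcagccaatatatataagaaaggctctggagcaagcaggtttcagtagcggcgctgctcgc

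The first base of the match lies at -42 from the transcription start in *Notch2*, at -249 and -171 in *Jag1* and at -195 in *Dll4*. A match describes the letters only.

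The rest of the pathway was read from a list of 59 genes, 55 of which passed the filter on low counts. *Dll3*, *Hes2* and *Hes7* did not pass it, and *Hes3* had no row. None of the 55 differed at an adjusted p under 0.05 by edgeR, DESeq2 or limma voom (smallest adjusted p of edgeR 0.544; 6 passed an unadjusted p of 0.05 by DESeq2, beside 7.67% of all genes, and 5 by limma voom, beside 7.32%), and none had groups that did not overlap. At an unadjusted p under 0.05, 5 were higher by label (9.09%, beside 3.68% of all genes) and 1 was lower (beside 3.82%). The fitted values were above 0 for 29 and below 0 for 26. With library size only, which moved the median of all genes from 0.00073 to -0.038, they were above 0 for 22 and below 0 for 33.

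Other receptors and ligands were all fitted above 0, with a median of 0.29 on the log2 scale over the 4 tested, and 3 of the 4 were above 0 with library size only. *Dner*, a neuronal transmembrane protein with EGF repeats, was at 11.2 ± 1.71 CPM under the control label and 14.99 ± 3.66 CPM under the mutant label (SD, n = 5 each), for a fitted log2 fold change of 0.42 (SE 0.16, adjusted p = 0.624). The neuron marker list summed to 52.0 to 142 CPM under the control label and 53.9 to 425 CPM under the mutant label, and its part in the value of *Dner* was not tested. The highest level of this group per kilobase was that of *Dlk1*, an imprinted non-canonical ligand of preadipocytes, at 31.3 ± 15.7 CPM per kilobase, with 120.0 to 411 CPM in the mutant-labelled libraries alone. *Hes6* had the highest level of the other target genes, 6.27 ± 0.876 CPM per kilobase, and none of the 4 tested passed an unadjusted p of 0.05.

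The proteases that cut Notch receptors were fitted below 0 in 9 of 9 genes, also with DESeq2 size factors and with library size only, with a median log2 fold change of -0.073. *Adam10*, which makes the first cut after ligand binding, was the highest per kilobase at 23.8 ± 1.86 CPM per kilobase, with a log2 fold change of -0.10 (SE 0.068, adjusted p = 0.755). Only *Aph1c*, a gamma-secretase subunit, passed the unadjusted threshold, with 2.71 ± 0.547 CPM under the control label and 1.84 ± 0.364 CPM under the mutant label (SD, n = 5 each) and a log2 fold change of -0.56 (SE 0.19, adjusted p = 0.544). Its reads can be shared with its near-identical neighbor *Aph1b*, which was at 10.8 ± 0.791 and 10.5 ± 1.54 CPM, so the value is uncertain.

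Of the 10 corepressors that RBPJ or HES proteins recruit, 3 were higher at the unadjusted threshold, which 3.68% of all genes passed in that direction, and with library size only 1 pathway gene of any role passed it in either direction. *Spen*, which bridges RBPJ to histone deacetylases, had a log2 fold change of 0.17 (SE 0.068, adjusted p = 0.634), and *Tle4*, a Groucho family protein, of 0.29 (SE 0.13, adjusted p = 0.656). *Ctbp1* was the most abundant of the 10 corepressors, at 27.0 ± 1.64 CPM per kilobase, with a log2 fold change of 0.015. Among 13 genes of endocytosis and ubiquitin ligases, *Fbxw7*, which marks the Notch intracellular domain for breakdown, had a log2 fold change of 0.23 (SE 0.091, adjusted p = 0.634), and *Dtx3* had the highest level, 22.9 ± 2.72 CPM per kilobase. The 8 genes of the transcription complex stayed between -0.11 and 0.055, with *Rbpj* itself at 85.4 ± 11.5 and 81.8 ± 11.4 CPM (SD, n = 5 each) and *Maml1* as the highest per kilobase, at 9.40 ± 0.794. The 7 glycosyltransferases, which modify the receptors' extracellular domains, stayed between -0.11 and 0.042, with *Rfng* as the highest of those with an exon length, at 9.66 ± 1.14 CPM per kilobase.

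**Figure D4:**
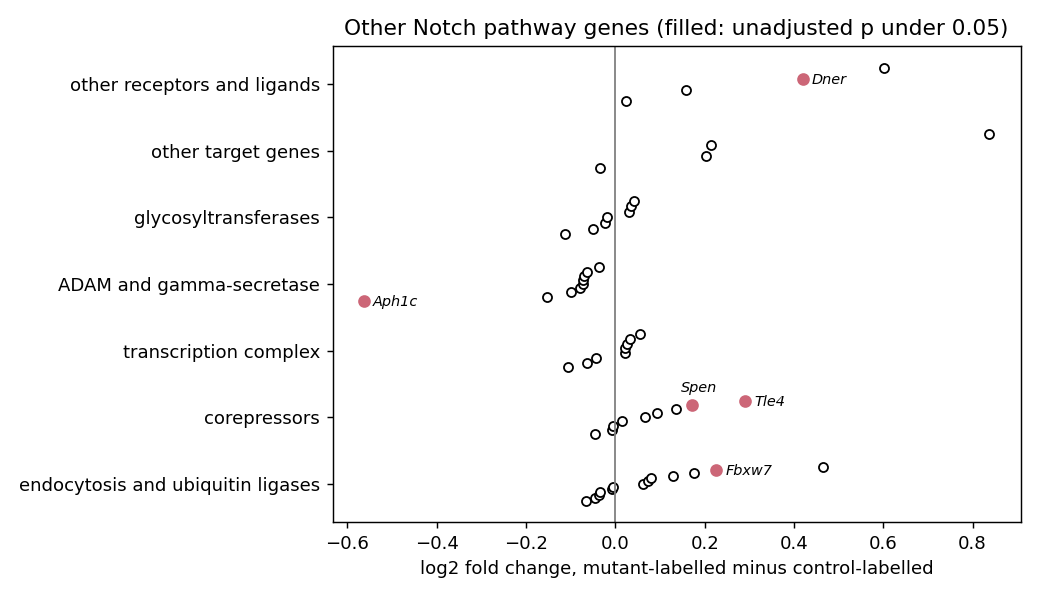
Log2 fold change, mutant-labelled minus control-labelled libraries (horizontal axis), of the other Notch pathway genes reported here, grouped by role (vertical axis, ordered by value within a role). Filled points with names have an unadjusted edgeR p under 0.05, with *Aph1c* below 0 and the others above; no gene passed an adjusted p of 0.05.

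The members were also compared with each other from library to library. Over the 45 pairs of members, Pearson's r of log2 CPM across the 10 libraries had a median of 0.251 and was above 0 in 32. It ran from -0.734 for *Notch2* with *Dll1* to 0.689 for *Notch3* with *Jag1*, and no pair passed a permutation test adjusted over the 45 pairs (smallest adjusted p = 0.286). For *Notch2* with *Dll1*, the permutation p was 0.019, Spearman's rho was -0.673 (permutation p = 0.0384, adjusted p = 0.388), and r was -0.691 without the 2 libraries farthest from the median of *Dll1*. For *Notch3* with *Jag1*, the permutation p was 0.03 and rho was 0.624 (permutation p = 0.0603, adjusted p = 0.41). Here r fell to 0.435 without the 2 libraries farthest from the median of *Jag1*, mutant-labelled replicates 1 and 3. After subtraction of each group's mean it was 0.778.

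Levels of the members were also set against marker lists of the cell types in which Notch genes are known to act. The endothelium list of 11 genes summed to 620 to 768 CPM under the control label and 653 to 790 CPM under the mutant label (exact permutation p of the mean log2 CPM 0.635), and the pericyte and smooth muscle list of 8 genes to 372 to 402 CPM and 344 to 465 CPM (exact permutation p = 0.873). The osteoblast list was lower by label for 10 of 10 genes, 7 of them at an unadjusted p under 0.05, beside 3.82% of all genes, and none at an adjusted p under 0.05. Its mean log2 CPM went from 9.31 ± 0.108 to 8.99 ± 0.164 (SD, n = 5 each, exact permutation p = 0.0159). The study also uses genes of the osteoblast list as markers, among them *Sp7* and *Ibsp*, so that its direction is not independent evidence. The connective tissue list of 4 genes, which the study itself uses as markers, so that its direction is not independent evidence, moved the other way, from 4.77 ± 0.145 to 5.24 ± 0.136 (SD, n = 5 each, exact permutation p = 0.00794, the smallest possible). All 4 of its genes were higher at an unadjusted p under 0.05, beside 3.68% of all genes, and none at an adjusted p under 0.05. Its part in the members' values was not tested. The ribosomal RNA percent was added as a further measure after the data were seen, so that 40 relations were computed. None passed an adjusted p of 0.05 by Pearson's r or Spearman's rho, and at an unadjusted p of 0.05 2 passed by each.

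All of these were with the pericyte and smooth muscle list: *Notch3* by both measures, *Jag1* by r and *Notch1* by rho. *Notch3* had r = 0.696 (permutation p = 0.021, adjusted p = 0.419) and rho = 0.83 (permutation p = 0.00451, adjusted p = 0.18). *Jag1* had r = 0.723 (permutation p = 0.0138, adjusted p = 0.419) and rho = 0.552 (permutation p = 0.105, adjusted p = 0.624). *Notch1* had r = 0.401 (permutation p = 0.244, adjusted p = 0.662) and rho = 0.697 (permutation p = 0.0301, adjusted p = 0.601). Without mutant-labelled replicates 1 and 5, the libraries farthest from the median of the list, r was 0.699 for *Notch3*, 0.68 for *Jag1* and 0.434 for *Notch1*, and after subtraction of each group's mean it was 0.712, 0.744 and 0.43. *Dll4*, the endothelial ligand, had r = 0.315 with the endothelium list (permutation p = 0.375, adjusted p = 0.713) and rho = 0.345 (permutation p = 0.332, adjusted p = 0.653). *Dll1* had r = 0.566 (permutation p = 0.0921, adjusted p = 0.614) and rho = 0.552 (permutation p = 0.105, adjusted p = 0.624). Without the 2 libraries farthest from the median, control-labelled replicate 2 and mutant-labelled replicate 5, r was -0.231 for *Dll4* and 0.0843 for *Dll1*, so that both relations rested on these libraries.

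**Figure D5:**
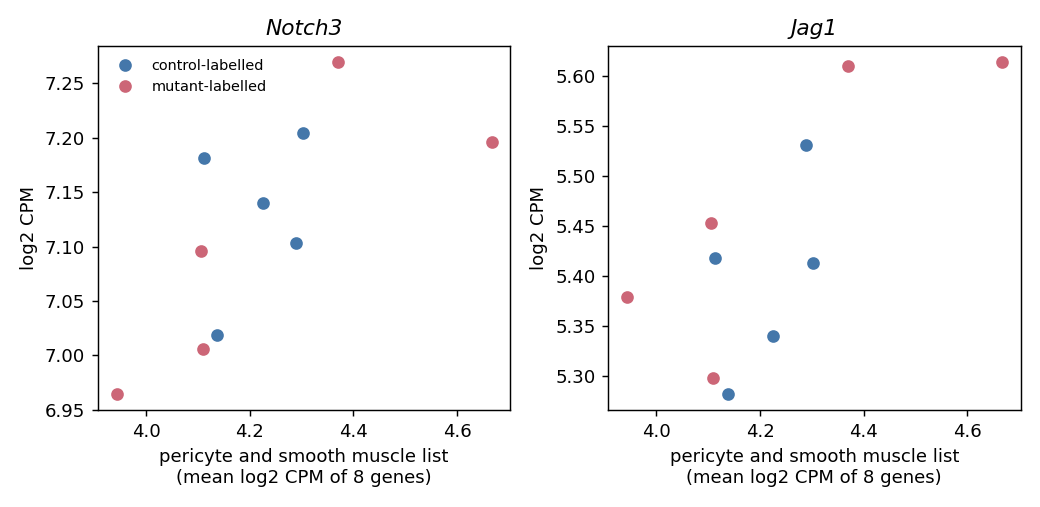
Log2 CPM of *Notch3* and *Jag1* (vertical axes) against the mean log2 CPM of 8 pericyte and smooth muscle marker genes (horizontal axes), 1 point per library colored by label. Over the libraries of both labels together r was 0.696 for *Notch3* and 0.723 for *Jag1*, and neither passed adjustment over 40 relations. Along the horizontal axis the control-labelled libraries spread less (SD 0.0864) than the mutant-labelled libraries (SD 0.284), and r was not computed within 1 label.

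The osteoblast list was set beside the target genes. *Hey1* had r = 0.573 with this list over all libraries (permutation p = 0.0869, adjusted p = 0.614), rho = 0.552 (permutation p = 0.106, adjusted p = 0.624) and r = 0.223 after subtraction of the group means. *Heyl* had r = 0.475 (permutation p = 0.164, adjusted p = 0.662), rho = 0.43 (permutation p = 0.219, adjusted p = 0.624) and r = 0.111 within groups. *Hes1* had r = 0.571 (permutation p = 0.0842, adjusted p = 0.614), rho = 0.539 (permutation p = 0.114, adjusted p = 0.624) and r = 0.697 within groups. The ligand *Jag2* went the other way, with r = -0.479 (permutation p = 0.162, adjusted p = 0.662), rho = -0.43 (permutation p = 0.217, adjusted p = 0.624) and r = -0.817 within groups. Without control-labelled replicate 4 and mutant-labelled replicate 2, the farthest from the median of the list, r was 0.359 for *Hey1*, 0.43 for *Heyl*, 0.44 for *Hes1* and -0.11 for *Jag2*. With the list as a covariate in the fit, the log2 fold change of *Hey1* was -0.11 (adjusted p = 0.999) and that of *Heyl* -0.12 (adjusted p = 0.999), while that of *Jag2* was -0.38 (unadjusted p = 0.0127, adjusted p = 0.994). The list and the label move together, so their parts in these values cannot be told apart.

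The genes whose pattern over the 10 libraries was most like that of each member were named by Pearson's r of log2 CPM among 14477 genes at a mean of at least 1 CPM. For *Notch2* they were *Lrp6* (r = 0.972), a WNT coreceptor, *Lrp1* (0.951), its endocytic relative, and *Setd7* (0.942), a lysine methyltransferase. For *Notch3* they were *Pip4k2c* (0.975), *Caskin2* (0.933) and *Dnajc16* (0.93), and for *Notch1* *Akap10* (0.928), *Map7* (0.915) and *Pxk* (0.898). For the ligands they were *Adap2* (0.939), *Nxn* (0.892) and *Ube2cbp* (0.885) with *Jag1*, *Rtca* (0.933), *Syn2* (0.921) and *Nkd2* (0.913) with *Jag2*, *Slc25a28* (0.934), *Egfl7* (0.918) and *Lrrc45* (0.907) with *Dll1*, and *Ppp1r10* (0.963), *Mrpl49* (0.945) and *Slc35b1* (0.927) with *Dll4*. For the target genes they were *Zadh2* (0.92), *Inpp5b* (0.876) and *Fam20b* (0.861) with *Hes1*, *Cdr2l* (0.925), *Map3k5* (0.903) and *Lca5l* (0.895) with *Hey1*, and *Sned1* (0.944), *Tatdn1* (0.933) and *Pde1a* (0.921) with *Heyl*. These are the highest of 14477 values over 10 shared libraries, and no member was among the 3 genes most like another member.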

How the data were processed

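RNA was isolated with a Zymo kit (RIN scores above 8) and sequenced as single reads from stranded libraries. The submitters' processing notes name Partek and mm10. The aligner, counting tool and strand setting are not given in the sources used here. The authors deposited 1 table of estimated counts per gene, not scaled between libraries, of which 67.2% of values were whole. The lowest gene sum was 10. All columns belonged to a mapped library. Positions match GENCODE M21 (GRCm38) for 22288 of 22533 symbols found there, after subtracting 1 from the table's end, and exon lengths come from it.

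Counts were rounded and fitted with edgeR 4.0.16 (R 4.3.3): expression filter (16267 genes tested, 6813 left out), TMM, quasi-likelihood test over 10 libraries without covariates, Benjamini-Hochberg adjustment over all genes tested, threshold 0.05. Log2 CPM used a prior count of 0.5. Exact permutation tests were two-sided over all groupings, with a smallest possible p of 0.00794, and correlations used 100000 permutations. Alternatives were DESeq2 1.42.0, limma 3.58.1 voom, other scalings and filters, covariates and leaving out each library.

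The biological coefficient of variation was 18.9%, and all 20 pairs of libraries of 1 group differed beyond sampling noise (chi-square per degree of freedom 8.01 to 101). The study's text describes 5 littermate pairs of embryos. The pairs are not named by library, so no pairing entered the fit. The p-values set the difference between labels against the spread between libraries, taken as independent. That spread does not separate litter from embryo. On simulated counts, with 200 of 16267 genes changed, edgeR recovered 34.5% of genes changed by 0.5 log2 units (2.82% of calls false) and 73.5% of those changed by 1 (2.65% false). Named genes are the members, *Fgfr2*, pathway genes at an unadjusted p under 0.05 or highest per kilobase in their role, and the 3 genes most like each member. A pathway gene that would fall under this rule is counted but otherwise not reported here. Marker genes, *Notch4*, *Aph1b*, *Rbpj*, *Ctbp2*, genes sharing exon bases with members, untested listed genes and those in the closing section were named outside this rule. The members and lists were chosen with earlier results of these data known.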

Additional observations from a re-analysis of the deposited data

Results flagged for a closer look

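*Hey1* in mutant-labelled replicate 1, at 22.8 CPM, stood apart from the other 4 mutant-labelled libraries, which lay between 19.4 and 20.3 CPM. Its gap to the nearest of them was 0.75 of the group's range, above Dixon's 95% critical value of 0.71 for 5 samples. It was the only one of 20 combinations of member and group to pass, and chance passes about 1 in 20. Without this library, the log2 fold change of *Hey1* was -0.21 (adjusted p = 0.633), against -0.18 with it.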

How the results depend on the processing

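No member passed an adjusted p of 0.05 under any of the 21 alternatives to edgeR's fit (lowest adjusted p 0.438), nor did any of the 55 pathway genes. *Hey1* stayed between -0.23 and -0.11 and *Heyl* between -0.27 and -0.12, below 0 in all 21, and *Notch2* (0.059 to 0.19) and *Jag1* (0.036 to 0.15) stayed above 0. Members at an unadjusted p under 0.05 were 0 instead of 1 with DESeq2 size factors, at least 10 counts in every library, *Xist* as a covariate, the table without ribosomal RNA genes and the DESeq2 Wald test, 2 with the endothelium list as a covariate, and 0 to 2 on leaving out 1 library. Over all genes, edgeR's 3 calls were 1 with library size only, with *Xist* and with the endothelium list, 0 with the osteoblast list, 97 by the DESeq2 Wald test, and 1 to 6 on leaving out 1 library (6 without mutant-labelled replicate 2). The count of pathway genes at an unadjusted p under 0.05, 6 in edgeR's fit, was 1 with library size only, 3 with the osteoblast list and 1 to 8 on leaving out 1 library (1 without control-labelled replicate 4, 8 without mutant-labelled replicate 4). The share of all genes at that threshold was 7.49% in edgeR's fit and 5.95%, 4.72%, 5.19% and 7.9% in these. The sign of *Jag2* turned with DESeq2 size factors (0.0067), at least 10 counts (0.0082), *Xist* (0.016), the endothelium list (0.0067), no ribosomal RNA genes (0.0029) and the DESeq2 Wald test (0.0068), and that of *Dll1* with DESeq2 size factors (0.0014), at least 10 counts (0.0037), *Xist* (0.0060) and the DESeq2 Wald test (0.0033). With the osteoblast list, *Notch1* (0.032), *Notch3* (0.026), *Dll4* (0.0061) and *Hes1* (0.26) turned. On leaving out 1 library, *Notch1* ranged from -0.11 to 0.0084, *Hes1* from -0.15 to -0.0030, *Dll4* from -0.12 to -0.019, *Notch3* from -0.054 to 0.014, *Jag2* from -0.062 to 0.069 and *Dll1* from -0.095 to 0.063. The cause of these moves was not tested.

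The replicate numbers did not pair the libraries (correlation of same-numbered deviations -0.211 to 0.139, none the best match). With the replicate block, 1 gene was called instead of 3 and no member. At this depth, *Dll1* rests on 104 to 183 counts per library, the fewest of the members.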

Other observations

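Some low or unevenly expressed pathway genes spread more between libraries of 1 label than between labels. *Hes5*, a Notch target of neural progenitors, was at 0.286 to 0.858 CPM under the control label and 0.418 to 2.14 CPM under the mutant label, on at most 50 counts (log2 fold change 0.84, adjusted p = 0.716). *Dtx1*, a Deltex ubiquitin ligase, ranged from 2.29 to 7.75 CPM and from 3.11 to 17.2 CPM (log2 fold change 0.46, adjusted p = 0.851). *Nrarp*, a feedback inhibitor that Notch signaling induces, was at 12.3 ± 0.950 and 14.3 ± 2.94 CPM (SD, n = 5 each, adjusted p = 0.731), while *Hey2*, the remaining HEY family gene, was at 4.87 ± 1.38 and 4.76 ± 1.36 CPM (adjusted p = 0.981).

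Of the vessel markers, *Efnb2*, an ephrin of arterial endothelium, was at a mean of 47.0 CPM under the control label and 52.1 CPM under the mutant label, and *Erg*, an endothelial transcription factor, at 41.1 and 50.6 CPM. These were the only ones of the 5 arterial and 11 endothelial genes at an unadjusted p under 0.05 in edgeR, a threshold that 7.49% of all genes passed, and neither was named by the rule. The other arterial genes had log2 fold changes of -0.10 (*Gja4*), 0.15 (*Gja5*), 0.10 (*Sox17*) and 0.094 (*Bmx*), and the mean log2 CPM of the arterial list did not pass the exact permutation test (p = 0.563). The 5 arterial genes summed to 65.6 to 73.4 CPM under the control label and 73.5 to 80.8 CPM under the mutant label. These sums did not overlap, *Efnb2* was the largest part of them, and they were not tested. *Cdh5*, the endothelial cadherin, was at 195 and 194 CPM.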
